A study of Drosophila melanogaster with 6 samples.

Results

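Of the 22059 CAP-D3 peaks on chromosomes 2L, 2R, 3L, 3R, 4 and X, 3071 (13.9%, 95% Wilson interval 13.5 to 14.4%) overlapped a peak of the IgG control by at least 1 bp. These peaks are called shared here, and the other 18988, which overlapped none, are called unshared. Members were chosen by the measured positions of the peaks in both lists, so the overlap itself is a description and not a finding. Both lists hold weak peaks as well as strong ones. With a score of at least 10 in both lists the number of shared peaks was 452, or 4.91% of the CAP-D3 peaks at that score. With that threshold in the CAP-D3 list alone, the number was 1541, or 16.7%. Per the labels, CAP-D3 was immunoprecipitated with antibody YZ384 from S2R+ cells, a Drosophila line given as embryonic and Oregon R. The control used Normal Rabbit IgG on the same kind of chromatin, and input chromatin was sequenced without an antibody. The labels give 10 units of micrococcal nuclease for each sample and name no other treatment. The methods of the paper differ from the labels in the cell line (S2-DRSC), the amount of nuclease and the number of experiments, and which holds for the deposited lists was not resolved. The labels list 2 samples for each antibody and 2 inputs, but each antibody has 1 deposited peak list, called against input, so no value here has a replicate.

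CAP-D3 is a subunit of Condensin II, a ring-shaped complex built on a pair of SMC ATPases that folds chromosomes in mitosis and acts on chromatin and gene expression in interphase. A control immunoprecipitation with nonspecific IgG recovers chromatin that sticks to antibody, beads or tube, and its peaks mark regions that are recovered without a specific antigen. In budding yeast, highly transcribed genes are known to be recovered by many unrelated antibodies. For a peak called with both antibodies, the lists alone do not separate signal of CAP-D3 from such recovery.

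Most shared pairs coincided closely. The overlap had a median of 276 bp, with quartiles of 253 and 318 bp and a range of 2 to 1264 bp. The midpoints of the peaks of a pair lay a median of 40 bp apart, and in 1717 of 3111 pairs (55.2%) they lay within 50 bp. In 1690 pairs (54.3%) the IgG peak lay wholly inside the CAP-D3 peak. The overlap took up a median of 77.2% of the CAP-D3 peak and 100% of the IgG peak, so that IgG peaks were in general the shorter members of a pair. Of the shared peaks, 3032 met 1 IgG peak, 38 met 2 and a single peak met 3. That single peak spanned 2120 bp in erm, which encodes a zinc finger transcription factor, on 2L from 1950780 to 1952899, with a CAP-D3 score of 16.72. Seen from the control, 3088 of 3899 IgG peaks (79.2%, 77.9 to 80.4%) overlapped a CAP-D3 peak.

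Few peaks lay near the limit of the rule. An overlap under 10 bp was found in 2 pairs. The smallest, 2 bp, joined a CAP-D3 peak on 2R from 1027181 to 1027882 with a score of 7.22 to an IgG peak with a score of 4.14. It was followed by a peak in dpy on 2L from 4486536 to 4487188 with 3 bp of overlap, and by a peak in CG5111 on 3R from 25506564 to 25506872 with 10 bp. On the other side of the limit, an unshared peak at Epac and Cyp6a2 on 2R from 6781025 to 6781506 lay 16 bp from an IgG peak. The next unshared peaks lay in Pzl (38 bp from an IgG peak) and in vir (40 bp). Only 305 unshared peaks (1.61%) lay within 250 bp of an IgG peak.

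The score of a peak, −log10 of the MACS p-value or q-value, was at most shared peaks higher with CAP-D3 than with IgG. Shared CAP-D3 peaks had a median score of 10.02 (quartiles 7.67 and 12.985, range 2.05 to 75.77). The score of the highest-scoring IgG partner minus that of the CAP-D3 peak had a median of −2.94 over the 3071 shared peaks, and the partner scored higher in 668 of them (21.8%). Because a score grows with sequencing depth as well as with enrichment and library depth is unknown here, these differences do not measure relative enrichment. Scores of 10 or more in both lists were reached by 452 shared peaks (14.7%), and scores of 20 or more in both by 12. In 1380 shared peaks (44.9%) both scores were under 10.

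Within the shared peaks, the scores of both antibodies moved together. The median CAP-D3 score was 8.67 in the 746 peaks whose IgG partner scored under 5. It was 9.55 in the 1034 peaks with a partner from 5 to 7.5, 10.4 in 689 from 7.5 to 10, and 12.575 in 472 from 10 to 15. It reached 14.69 in 105 peaks with a partner from 15 to 20 and 18.47 in the 25 with a partner of 20 or more. Across the 3071 peaks the rank correlation of both scores was 0.337 and Pearson's r was 0.427, given as a description because both lists were called against input and peaks of 1 genome are not independent.

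**Figure D1:**
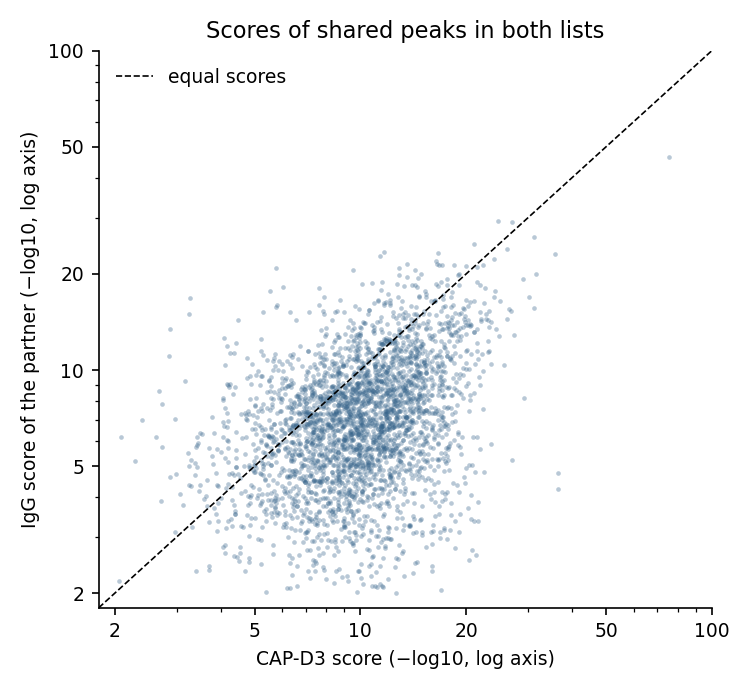
CAP-D3 score of each of the 3071 shared peaks (−log10 p or q) against the highest score of the IgG peaks that overlapped it, both on log axes, with 1 point per peak and the line of equal scores. Most points lie below the line, where CAP-D3 scored higher, and 668 lie above it.

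Of the 10 highest-scoring shared peaks, 7 lay in genes and 3 outside any gene. The highest lay on X from 54291 to 54611, outside any gene and 52111 bp from SteXh:CG42398. It scored 75.77 with CAP-D3, which ranked 2 among all CAP-D3 peaks, and 46.57 with IgG, the highest IgG score of any pair. Tet, which encodes a DNA and RNA methylcytosine dioxygenase, held a peak on 3L from 2857915 to 2858327 with scores of 35.71 and 23.14. In Ih, a hyperpolarization-activated channel gene, the peak on 2R from 14280423 to 14280772 scored 31.65 and 20. In Rbfox1, whose product binds RNA and regulates splicing, the peak on 3L from 10505044 to 10505335 scored 31.19 and 26.05. These peaks were strong with both antibodies. DIP-lambda, a cell surface immunoglobulin gene, held a peak on 2R from 634216 to 634797 with scores of 31.18 and 15.63. In beat-IV, another immunoglobulin family gene, the peak on 3R from 23569303 to 23569701 scored 29.04 and 19.34. A peak on 2R from 4876686 to 4877105 lay outside any gene, 18625 bp from CG44102, with scores of 30.16 and 16.89.

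Other strong CAP-D3 peaks had a weak IgG partner. The peak at CG18170 and CG33791 on 3L from 1607279 to 1608351 scored 36.49 with CAP-D3 and 4.23 with IgG. The peak in Gr21a on 2L from 782343 to 782865 scored 36.48 and 4.76. Gr21a encodes a subunit of the carbon dioxide receptor of olfactory neurons. In FoxK, a forkhead transcription factor gene, the peak on 3L from 11117574 to 11117984 scored 27.01 and 5.24. A peak on 3L from 2025619 to 2025947, 1044 bp from Grl62c, scored 29.17 and 8.19. For these peaks membership rested on an IgG peak that a threshold of 10 would remove.

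The reverse was found as well. In Pzl, which encodes a Piezo-like mechanosensitive channel, the peak on 3R from 3153013 to 3153398 scored 24.72 with CAP-D3 and 29.2 with IgG. In Ggamma30A, a G protein gamma subunit gene, the scores were 27.04 and 29.02 (2L, 9270823 to 9271209). In PH4alphaEFB, which encodes a prolyl 4-hydroxylase of collagen, they were 21.05 and 24.87 (3R, 30480199 to 30480590). The widest margin in favor of IgG lay in CG8170 on 2R from 9026317 to 9026606, with 5.74 against 20.92. The peak in wake, a circadian clock output gene, on 3R from 22658150 to 22658482 scored 6.01 against 18.2. A peak on X from 22373657 to 22373907, 70320 bp from CG14621, scored 3.28 against 16.84. A peak on 3R from 28773165 to 28773478, 1000 bp from lncRNA:CR46496, scored 5.54 against 17.63, and one on 2R from 1462875 to 1463237, 18940 bp from l(2)41Ab, scored 3.25 against 15.01. These last 5 peaks were weak in the CAP-D3 list and strong in the control.

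Shared peaks were longer and scored higher than unshared peaks, which is a description, since both measures come from the peak calls that the rule used and a longer peak meets an IgG peak more easily. The median width was 394 bp (quartiles 306 and 526.5 bp, range 250 to 2395 bp) in shared and 317 bp in unshared peaks. The widest shared peak, 2395 bp, lay in pros, a homeodomain transcription factor gene, on 3R from 11374846 to 11377240. The share of CAP-D3 peaks that were shared was 7.88% from 250 to 300 bp and 26.4% at 600 bp or more. The median score was 10.02 against 8.98. A score of at least 10 was reached by 1541 shared peaks (50.2%) and by 40.4% of unshared peaks, with 41.8% of all CAP-D3 peaks at that threshold. A score of at least 20 was reached by 95 shared peaks (3.09%) and 2.11% of unshared peaks, with 2.25% of all. From the lowest to the highest of 6 score classes, the percentage of peaks that were shared went from 8.81% to 19.2%.

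**Figure D2:**
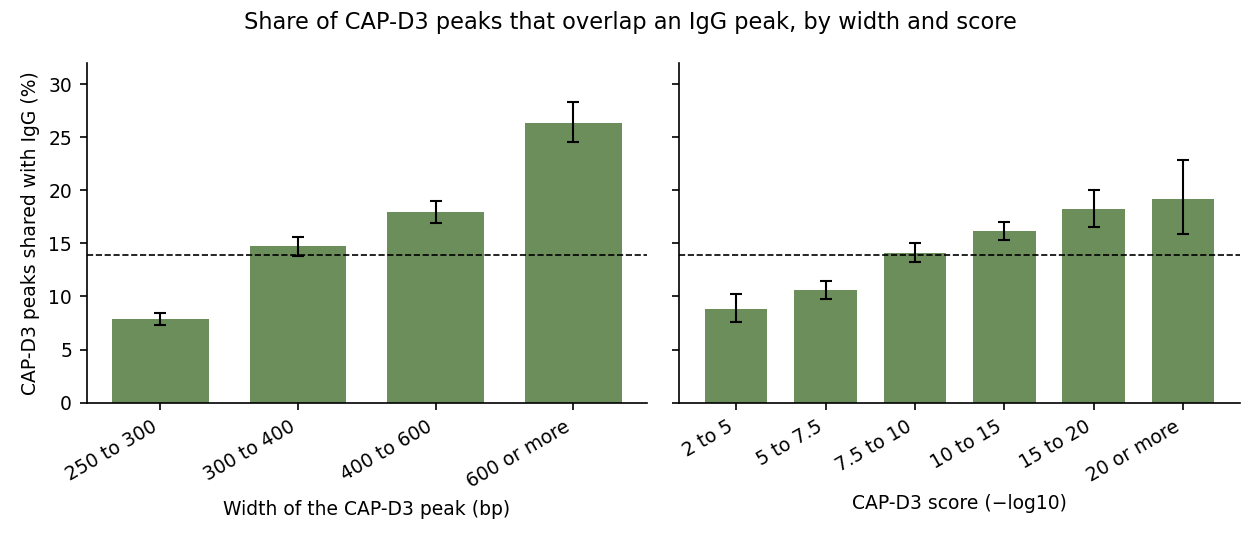
Percent of CAP-D3 peaks that were shared (vertical axis) by peak width in bp and by CAP-D3 score, with error bars for 95% Wilson intervals and the 13.9% of all CAP-D3 peaks as a dashed line. The share goes from 7.88% in the narrowest to 26.4% in the widest class, and from 8.81% to 19.2% over the score classes.

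Along the chromosomes, the X stood apart. On X, 62 of 1021 CAP-D3 peaks were shared (6.07%, 4.77 to 7.71%), against 3005 of 21013 (14.3%) on the large autosome arms. The arms differed little among themselves, with 594 of 4088 peaks (14.5%) on 2L, 686 of 5121 (13.4%) on 2R, 718 of 4867 (14.8%) on 3L and 1007 of 6937 (14.5%) on 3R. Chromosome 4 held 4 shared peaks of 25 (6.40 to 34.7%), too few to place. The IgG list held only 75 peaks on X, of which 62 (82.7%) overlapped a CAP-D3 peak, near the share of IgG peaks on the other chromosomes. Outside the 5 Mb next to the centromere, CAP-D3 peaks were sparse on X too, with 41.1 per Mb against 190 to 245 per Mb on the autosome arms. Next to the centromere X was not apart in CAP-D3 density, with 51.8 per Mb. There the CAP-D3 density was 36 on 2R, 48.4 on 3L, 63.6 on 3R and 116 on 2L. IgG peaks were sparse on X there too, with 5.80 per Mb against 18.2 to 21 on the large autosome arms.

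Shared peaks made up more of the CAP-D3 peaks near the centromere on 4 of the 5 large arms. Pericentric DNA in Drosophila is rich in repeats and packed as heterochromatin. The 5 Mb used here is a fixed distance that was not fitted to the extent of heterochromatin on each arm. In the 5 Mb next to the centromere, the share was 59 of 180 peaks (32.8%, 26.3 to 39.9%) on 2R and 78 of 242 (32.2%, 26.7 to 38.4%) on 3L, against 12.7% and 13.8% on the rest of these arms. On 3R it was 66 of 318 (20.8%, 16.7 to 25.5%) against 14.2%. Over 2R, 3L and 3R the difference was 13.8 percentage points (Newcombe 95% interval 10.7 to 17.2). On 2L the direction was the opposite, with 12.8% near the centromere and 14.8% elsewhere, a difference of −2.04 points whose interval held 0 (−4.80 to 1.14). On X the values were 10.8% and 4.46%. Over the 5 arms together, 305 of 1578 peaks (19.3%) near the centromere were shared against 2762 of 20456 (13.5%).

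Peaks of both antibodies were sparser near the centromere on 2R, 3L and 3R, and CAP-D3 peaks more so. There were 49.3 CAP-D3 peaks and 19.2 IgG peaks per Mb in the 5 Mb next to the centromere, and 230 and 39.7 per Mb on the rest of these arms. The ratio of CAP-D3 to IgG peaks was 2.57 near the centromere and 5.80 elsewhere. On 2L both kinds of peak were sparser near the centromere as well, with 116 against 190 CAP-D3 peaks and 19 against 34.8 IgG peaks per Mb. The ratios there were 6.09 near the centromere and 5.44 elsewhere. On X both kinds of peak were denser near the centromere than elsewhere, with 51.8 against 41.1 CAP-D3 peaks and 5.80 against 2.48 IgG peaks per Mb. Of IgG peaks near the centromere on 2R, 3L and 3R, 70.5% overlapped a CAP-D3 peak, against 79.5% elsewhere. On 2L it was 78.9% against 81.1%, and on X 93.1% against 76.1%. Shared CAP-D3 peaks were sparser near the centromere on 2R, 3L and 3R, with 203 in 15 Mb against 2208 in 70.4 Mb. The part of read mapping in repeats in these shares was not tested.

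**Figure D3:**
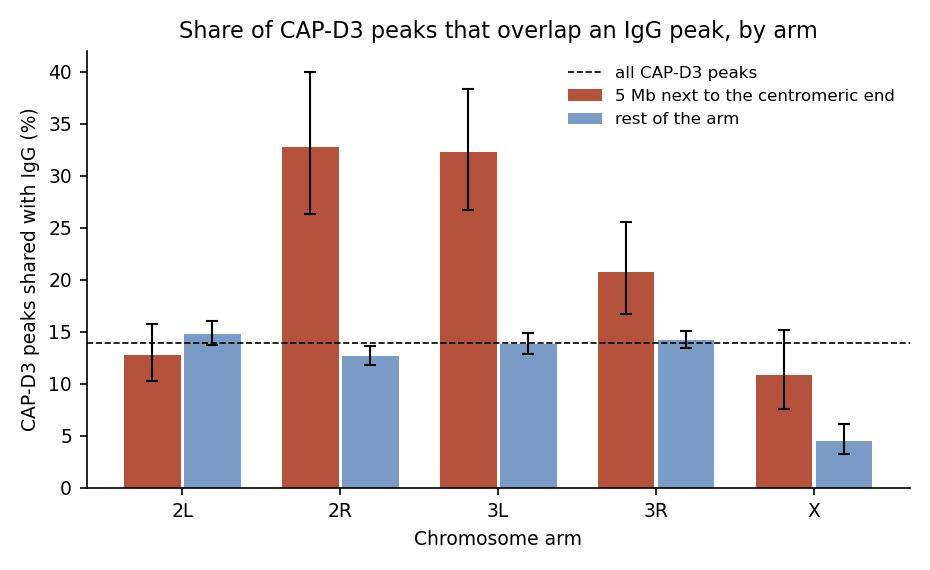
Percent of CAP-D3 peaks that were shared (vertical axis) on each large chromosome arm, in the 5 Mb next to the centromeric end and on the rest of the arm, with error bars for 95% Wilson intervals and the 13.9% of all CAP-D3 peaks as a dashed line. The bars next to the centromere stand at 32.8% on 2R and 32.2% on 3L, while that of 2L stands at 12.8%.

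Relative to genes, shared peaks lay farther from gene ends than unshared peaks. The annotation was not used by the rule, but peaks are not replicates, and the intervals cover counting error only. Of the shared peaks, 2375 (77.3%, 75.8 to 78.8%) overlapped a gene span, against 80.8% of unshared peaks and 80.3% of all CAP-D3 peaks, a difference of −3.47 percentage points (−5.08 to −1.92). A gene end lay within 1000 bp of the midpoint of 774 shared peaks (25.2%) and of 32.8% of unshared peaks, with 31.7% of all CAP-D3 peaks, a difference of −7.58 points (−9.22 to −5.87). The median distance to the nearest gene end was 2832.5 bp for shared and 1961.25 bp for unshared peaks. More than 10 kb lay between the peak and any gene end in 18.4% of shared and 12.7% of unshared peaks (difference 5.73 points, 4.32 to 7.22).

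Read the other way, the percentage of CAP-D3 peaks that were shared was 11.6% within 150 bp of a gene end, 11.5% from 150 to 500 bp and 10.6% from 500 to 1000 bp. It was 13.0% from 1000 to 3000 bp, 15.7% from 3000 to 10000 bp and 19.0% beyond. By the length of the gene that held the peak, the percentage was 10.1% in genes under 5 kb, 13.3% from 5 to 20 kb, 15.1% from 20 to 50 kb and 16.6% from 100 to 200 kb. Genes of 200 kb and more had 60 shared of 244 peaks (24.6%), but without the 5 Mb next to the centromeres they had 6 of 58 (10.3%, 4.83 to 20.8%). The gene span difference depended on score. It was −14.4 points at scores under 5, and the direction turned at scores from 15 to 20 (6.002 points, 1.26 to 10.2). At scores of 20 or more it was 6.77 points, with an interval that held 0 (−3.58 to 15.5).

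**Figure D4:**
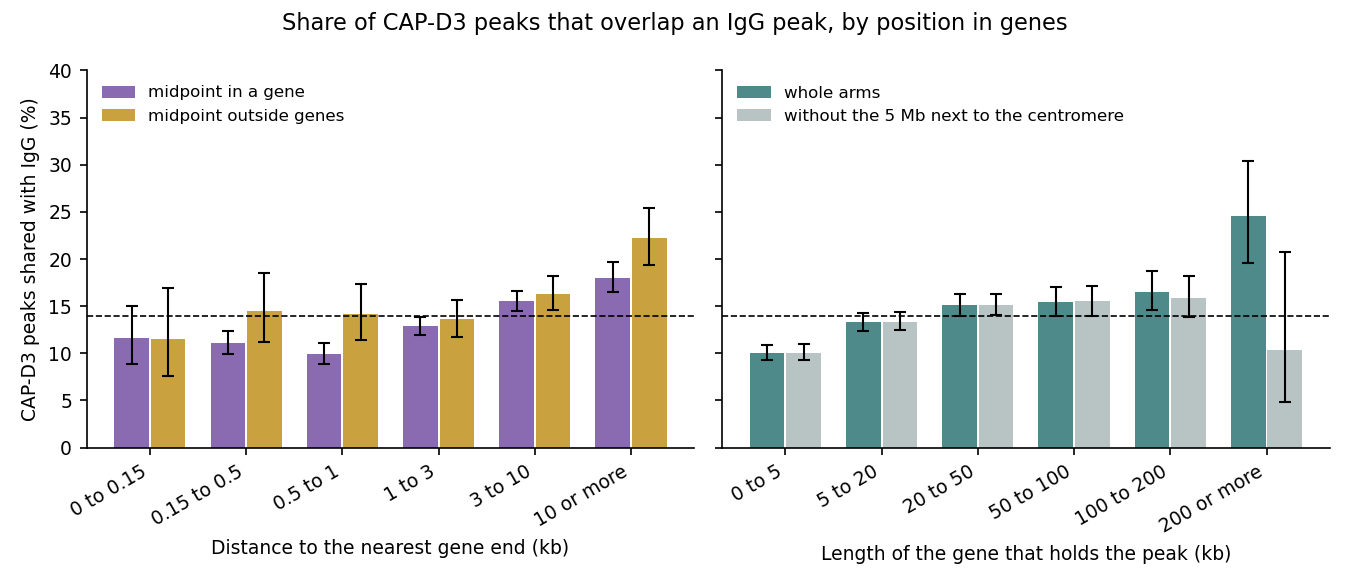
Percent of CAP-D3 peaks that were shared (vertical axis), on the left by distance to the nearest gene end in kb for peaks with a midpoint in or outside a gene, and on the right by gene length in kb, for whole arms and without the 5 Mb next to the centromere. Error bars are 95% Wilson intervals and the dashed line is the 13.9% of all CAP-D3 peaks. Outside genes the bar beyond 10 kb stands at 22.2%, and on the right the bar of genes of 200 kb or more drops from 24.6% to 10.3%.

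The genes with the most shared peaks were long. Of 17684 annotated genes, 7296 (41.3%) overlapped a CAP-D3 peak and 1660 (9.39%) a shared peak. A single shared peak was found in 1195 genes, at least 2 in 465 and at least 5 in 52. Myo81F, a myosin gene in the pericentric heterochromatin of 3R, had the most, 23 of its 79 CAP-D3 peaks. It was followed by dpy, which encodes a giant extracellular matrix protein that anchors epidermis to cuticle, with 20 of 56 (35.7%). The zinc finger gene jing had 12 of 55, and Rbp6, an RNA-binding protein gene of the Musashi family, had 11 of 45. Ptp61F, a tyrosine phosphatase gene, had 10 of 43, Pzl 9 of 33 and the ionotropic receptor gene Ir41a 8 of 18. In sls, which encodes a titin-like protein of muscle, 9 of 20 (45.0%) were shared, and in DIP-lambda 10 of 17 (58.8%). The shared peaks of DIP-lambda lay in the 5 Mb next to the centromere of 2R.

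**Figure D5:**
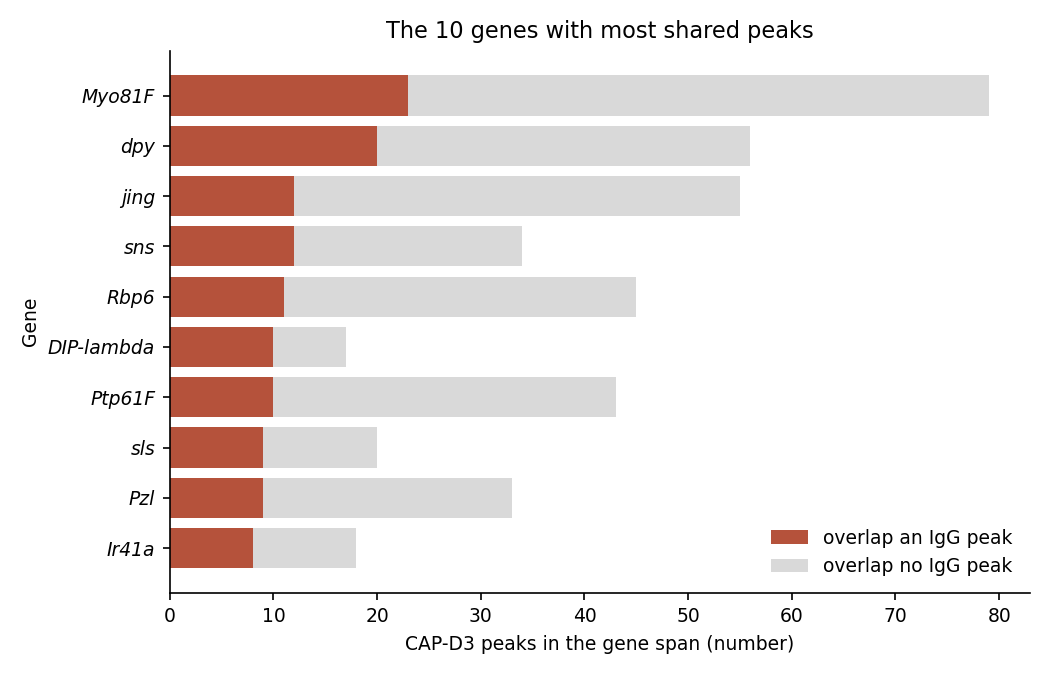
Number of shared and unshared CAP-D3 peaks in the genes with the most shared peaks, as stacked bars from 0 (horizontal axis, number of peaks in the gene span). Myo81F has 23 shared of 79 peaks, dpy 20 of 56 and DIP-lambda 10 of 17.

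The scores of shared and unshared peaks of the same gene overlapped. In dpy the shared peaks had a median CAP-D3 score of 9.46 (5 to 14.41) and the unshared peaks 8.025 (4.64 to 21.21). In Myo81F the medians were 9.81 and 8.83, and in DIP-lambda 11.17 and 11.37. In Ptp61F the shared peaks were stronger with both antibodies than in dpy, with medians of 13.825 for CAP-D3 and 10.33 for IgG. Pairs in which IgG scored above CAP-D3 were 2 of 20 in dpy and 5 of 23 in Myo81F.

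sns, a Nephrin family gene that acts in myoblast fusion and in the filtration diaphragm of nephrocytes, had 12 shared peaks of 34 (35.3%). IgG scored above CAP-D3 in 6 of these 12, more of them than in the other genes named above. The peak on 2R from 8807204 to 8807737 scored 12.84 with CAP-D3 and 13.44 with IgG. The peak from 8834394 to 8834746 scored 5.64 and 9.99, and the peak from 8829078 to 8829962 scored 12.04 and 6.67. The highest unshared peak of sns scored 21.74, above all of its shared peaks. Of the other Nephrin and Neph1 family genes, hbs had 1 shared peak of 7, and over the family 13 of 44 peaks (29.5%, 18.2 to 44.2%) were shared. sns makes up most of this count, and the list was chosen with its peaks known.

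Some genes with fewer peaks had a larger share, and these were chosen after their values were seen. Of 725 genes with at least 6 CAP-D3 peaks, 20 had 50% or more of them shared and 165 had none. kst, which encodes the beta-heavy spectrin of the apical cytoskeleton, had 8 of 14 (57.1%), and CAP-D3 scored above IgG in each, from 5.82 against 3.94 to 18.6 against 15.11. Dhc62B, an axonemal dynein heavy chain gene, had 7 of 13 (53.8%), with CAP-D3 scores of 6.26 to 17.1. Its 7 shared peaks lay on 3L between 1761100 and 1769307. The basement membrane collagen gene Col4a1 had 4 of 8, with scores of 8.38 to 10.1 for CAP-D3 and 5.04 to 8.5 for IgG. At the other end, 5 of 132 genes with 15 or more CAP-D3 peaks had no shared peak. They were mbl with 20 peaks, klar with 20, CG17839 with 18, CG32373 with 17 and lncRNA:CR45962 with 16. mbl encodes an RNA splicing factor and klar a protein that links nuclei and lipid droplets to microtubule motors.

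Among developmental regulators, Hox genes, which set segment identity along the body, had 21 shared of 88 CAP-D3 peaks (23.9%, 16.2 to 33.7%). Over all peaks in gene spans, 2375 of 17719 (13.4%) were shared, below that interval. Hox genes are long, with a median of 30.6 kb. The share in genes of 20000 to 50000 bp, the class of this median, was 15.1%. In genes of 50000 to 100000 bp it was 15.5%, and in genes of 100 to 200 kb, a class with only Antp of the Hox genes, 16.6%. The Hox interval treats the 88 peaks of 8 genes as independent. Whether gene length plays a part in the Hox share was not tested. At least 1 shared peak was found in 6 of the 8 genes. Ubx had 7 of 24, Antp 6 of 25, Abd-B 4 of 14, Scr 2 of 5, Dfd 1 of 3 and abd-A 1 of 8, while lab and pb had 0 of 4 and 0 of 5. The strongest shared peak in Antp, on 3R from 6911726 to 6911997, scored 18.47 with CAP-D3 and 21.35 with IgG. In Ubx the strongest, on 3R from 16734379 to 16734709, scored 14.28 and 9.6.

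Genes of the Hedgehog, Dpp and Notch pathways had 12 shared of 66 peaks (18.2%, 10.7 to 29.1%), an interval that held the background. hh, the Hedgehog ligand gene, had 3 of 6. Its peak on 3R from 23131342 to 23131810 scored 15.4 with CAP-D3 and 6.6 with IgG, and in the other 2 IgG scored higher (8.92 against 6.17 and 9.58 against 5.2). dpp, which encodes a BMP ligand, had 3 of 10, all with CAP-D3 above IgG (11.18 and 8.62, 10.18 and 9.31, 11.16 and 8.59). inv, a homeobox gene, had 2 of 9.

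Genes of the wing veins and of EGFR signaling, which the study examined, had 8 shared of 91 peaks (8.79%, 4.52 to 16.4%). This interval held the background too. px, a gene required for vein patterning, had 4 of 22, of which the strongest scored 20.38 with CAP-D3 and 10.06 with IgG. Egfr, the receptor gene, had 2 of 14, with scores of 22.69 and 18.07 in one and 9.6 and 5.12 in the other. Sos and rho had 1 each. kn, the COE transcription factor gene knot, had 0 of 5, bs, which encodes the Drosophila serum response factor, 0 of 11, and vn, an EGFR ligand gene, 0 of 11. With so few peaks, a share of 0 in kn, bs or vn could not be told from a share at the background. The IgG list held 1 peak in the span of kn, which none of the CAP-D3 peaks of kn overlapped. The shared peak nearest kn lay in Pgm2b, 12602 bp away, with scores of 15.74 and 12.62.

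Cell surface families showed a range of shares. The odorant, gustatory and ionotropic receptor genes, which act in sensory neurons, had 19 shared of 91 peaks (20.9%, 13.8 to 30.3%). Ir41a held 8 of these 19, and Gr21a had 2 of 3. The Dpr, DIP and Beat adhesion genes had 52 of 294 (17.7%, 13.8 to 22.5%), of which DIP-lambda had 10, dpr12 6 of 32, dpr11 5 of 25 and dpr3 4 of 19. Those of DIP-lambda lay in the 5 Mb next to the centromere of 2R, where 32.8% of CAP-D3 peaks were shared. These adhesion genes had a median length of 33.2 kb, and the share in genes of 20 to 50 kb (15.1%) fell inside their interval. In the same families, dpr21 had 3 of 14, DIP-kappa 3 of 8, dpr16 2 of 5, beat-IIIa 2 of 4, beat-IIIc 2 of 7, DIP-epsilon 2 of 11 and DIP-gamma 2 of 14. Cadherin genes had 20 of 117 (17.1%, 11.3 to 24.9%), an interval that held the background. Among them stan had 5 of 21, ds 4 of 14, CadN 3 of 15 and Cad89D 2 of 6. stan and ds encode atypical cadherins of planar cell polarity and CadN the neural cadherin. Axon guidance and homophilic adhesion genes had 33 of 233 (14.2%), near the background. Among them the teneurin gene Ten-m had 7 of 44 and the leucine-rich repeat genes Con and trn 6 of 31 and 2 of 3. The Robo receptor genes robo3 and robo2 had 4 of 8 and 2 of 17, their ligand gene sli 2 of 24, the semaphorin gene Sema1a 3 of 16, and Dscam1 and Dscam2 2 of 15 and 2 of 7.

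The lists of cytoplasmic ribosomal protein genes, heat shock genes and constitutive genes held 1 shared peak. CAP-D3 peaks were found in 17 of 85 ribosomal protein genes, 9 of 20 heat shock genes and 11 of 12 constitutive actin, tubulin and glycolysis genes, against 41.3% of all genes. The cytoplasmic ribosomal protein genes had 20 CAP-D3 peaks and the heat shock genes 10, of which 0 were shared in either list. Many heat shock genes are expressed at a low level until cells are stressed. The constitutive actin, tubulin and glycolysis genes had 1 shared peak of 17, in Pgk, the phosphoglycerate kinase gene. Together, a combination made after the values were seen, these lists had 1 of 47 (2.13%, 0.377 to 11.1%). Their genes had a median length of 1.48 kb, against 1.71 kb over all genes. The share in genes under 5 kb, 10.1%, fell inside this interval. Since 0 of 20 allows a share of up to 15%, a share at the background could not be told from 0 in the ribosomal protein genes alone. Expression in these cells was not measured in this series. Condensin subunit genes had 0 of 6, dosage compensation genes 0 of 8, tRNA genes 0 of 1, and histone genes no CAP-D3 peak. Hemocyte genes had 7 of 82 (8.54%, 4.20 to 16.6%), 4 of them in Col4a1. Cuticle protein genes had 8 of 71 (11.3%, 5.82 to 20.7%), 2 of them in Cpr50Ca. Both of these intervals held the background.

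Along the chromosome, the percentage of next peaks that were shared was higher after a shared than after an unshared peak, a difference that was not tested. After a shared peak, the next CAP-D3 peak was shared in 548 of 3070 cases (17.9%), and after an unshared peak in 2521 of 18983 (13.3%). Most shared peaks stood alone in this order, with 2092 single, 337 runs of 2 and 78 runs of 3. The longest run, 8 peaks over 31.9 kb on 3R from 30660499 to 30692376, included the 3 peaks of Spn100A, a serpin gene, with CAP-D3 scores of 4.51 to 18.14 and IgG scores of 2.41 to 16.93. The 3 runs of 5 lay in DIP-lambda, in Pzl and outside any gene on 3L from 26026719 to 26127568. All of these runs of 5 lay in the 5 Mb next to a centromere. The percentages of next peaks given above pool such regions with the rest of the arms, where the share differed. Crowding of CAP-D3 peaks itself differed little, since another CAP-D3 peak lay within 5000 bp of 90.5% of shared and 89.4% of unshared peaks, a difference of 1.04 points whose interval held 0 (−0.132 to 2.12).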

How the data were processed

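Chromatin from S2R+ cells (as labelled) was immunoprecipitated with CAP-D3 antibody or IgG and sequenced with input. The submitters' processing notes name CASAVA 1.4, Trim Galore 0.3.7, cutadapt 1.8, FastQC 0.11.3, Bowtie 1.0.0 and MACS2 2.0.9. The authors deposited 1 peak list per antibody against input, with positions and a score, −log10 of a p-value or q-value (which of these, and how experiments were combined, is not given in the sources used here; the study's supplementary methods were not used). Depth is unknown. Sequence names and peak ends on 3R (to 31963085) matched Release 6, whose RefSeq gene spans (17684 genes, no strand or exons) were used. Positions count from 1.

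Peaks sharing at least 1 bp were paired. Shares have 95% Wilson intervals, and differences Newcombe intervals, computed as if peaks were independent, for counting error alone. A count of 0 was read against 3 peaks of the total. No p-values were computed. Named genes lay at the 10 highest-scoring shared peaks, the 5 with the highest IgG score, the 5 each with the widest margins between the scores, the shared peak nearest knot, the 10 genes with most shared peaks, and members of 17 gene lists with at least 2 shared peaks. Other genes named, such as further list members and those next to the overlap limit, fall outside this rule and were chosen after their values were seen. Members and lists were chosen with earlier results of these data known. Overlap, score threshold, window and stratification were varied. Counting was tested on simulated peaks. Sequence content was not analysed here. Python 3.11.15, numpy 2.4.6, pandas 2.3.3 and matplotlib 3.10.9 were used.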

Additional observations from a re-analysis of the deposited data

Results flagged for a closer look

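Outside the 6 chromosomes, on sequences that no comparison above used, 13 of 49 CAP-D3 peaks (26.5%, 95% Wilson interval 16.2 to 40.3%) overlapped an IgG peak, and these sequences held 16 IgG peaks in all. The shared peaks there had CAP-D3 scores of 9.57 to 45.45 with a median of 17.19, against a median of 16.85 over all 49, and the highest IgG score was 35.13. They were looked at again because they lie outside the main measurement.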

How the results depend on the processing

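The number of shared peaks depended on the score threshold: 452 with both scores at least 10 (4.91% of CAP-D3 peaks at that score), 602 with the IgG score at least 10 (2.73%), 1541 with the CAP-D3 score at least 10 (16.7%) and 95 with it at least 20 (19.2%). The share was 12.2% when the CAP-D3 midpoint had to lie in an IgG peak and 15.3% when IgG peaks were extended by 250 bp. With both scores at least 10, the median score was 14.4, the median width 380 bp and the number of genes with a shared peak 308. The difference at gene ends was −0.473 points in a window of 150 bp, with an interval that held 0. The difference in the share near another CAP-D3 peak was −1.78 points with both scores at least 10 and −0.0755 within width classes, both opposite to the main value, and it was 2.10 with a gap of 2000 bp and 1.58 without the 5 Mb next to the centromeres, both with intervals above 0. On 2L alone the difference near the centromere was −2.04. The causes were not tested. For the other 31 values, differences kept their direction and whether their interval held 0, counts stayed within 1.5 times the main count, and with 50% of the shorter peak overlapped the share was 13.6%, the median score 10.04 and the median width 394 bp. Comparisons within score or width classes, without the 5 Mb next to the centromeres, without X and by single arms were chosen after seeing the data. No paired analysis was possible because the peaks of an antibody form 1 list in which single experiments are not told apart, so no experiment could be left out. Alternatives on sequence content were not run. Depth limits weak peaks of either list by an amount that is unknown here.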
